A study of Mus musculus with 4 samples.

Results

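DNA methylation is written, copied and removed by a small set of enzymes, and the 8 mouse genes described here encode them: the maintenance methyltransferase Dnmt1 and its partner Uhrf1, the de novo methyltransferases Dnmt3a and Dnmt3b, their catalytically inactive cofactor Dnmt3l, and the dioxygenases Tet1, Tet2 and Tet3. They are 8 of 21951 protein-coding genes in GENCODE M21, and were chosen for their function. A listed sequence was assigned to a gene when it matched a transcript of that gene exactly, in sense or antisense, and no transcript of another gene. This gave 5597 of 4906138 distinct sequences, or 0.114% of the list. Of these, 5571 were sense and 26 antisense.

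The sequences are small RNAs that were bound to MILI (Piwil2), a PIWI protein of male germ cells, and were recovered by immunoprecipitation from testis lysates of C57BL/6 mice at 14 days post partum (dpp). The study held 2 libraries from Tdrd9-/- mice, which lack the RNA helicase TDRD9, and 2 libraries from heterozygous Tdrd9+/- mice, and it asked how the RNAs bound to MILI differ between them. The labels do not say how many animals gave each library, and testes hold somatic cells beside germ cells. The list analysed here pools all 4 libraries and carries neither read counts nor library labels. Depth is therefore unknown, the genotypes were not compared, and no replicate error or test was possible. Values are descriptions of 1 pooled list, and intervals are exact Clopper-Pearson 95% intervals that cover counting error over distinct sequences or positions only.

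In germ cells PIWI proteins carry piRNAs, which guide them to complementary transcripts, and in the fetal testis nuclear piRNA complexes direct de novo DNA methylation to transposons through the DNMT3 enzymes and DNMT3L. Primary piRNAs are cut from long single-stranded precursors and usually begin with U. Those precursors include the 3′ untranslated regions (UTRs) of many messenger RNAs. Secondary piRNAs arise when a PIWI protein slices an opposite-strand transcript, which leaves partners whose 5′ ends overlap by 10 nt and an A at position 10. Exact matches to the enzymes' own messages thus show which parts of these messages were present among MILI-bound RNA.

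One sequence from the coding part of each gene shows what was counted. Each is the longest sequence of at most 30 nt at the coding 5′ end that held the most distinct sequences (the first such end along the transcript where ends tied). They are in the letters of the list, with T for U. Capitals mark the first base, and the base at position 10 where it is A.

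Dnmt1: Tacgacgaagccaaggacgatgatgagacc
Uhrf1: Taagacctcggaggatgacatcatgtacca
Dnmt3a: Tgtggaagtgcagaacaagcagatgattg
Dnmt3b: TgatgaagtAgatgatgggaatggctc
Dnmt3l: Taagacccttgaaaccttggacctgga
Tet1: TgaagacgaAgacatcaaagcaggctg
Tet2: Tggaagcccgttagcagagagacctcatc
Tet3: Tgaccctatggcagaactggagcagctat

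All 8 began with U, and 2 of them, from Dnmt3b and Tet1, had A at position 10. On mm9 they lie at chr9:20726803-20726832 on the minus strand for Dnmt1, chr17:56450215-56450244 on the plus strand for Uhrf1, chr12:3896957-3896985 on the plus strand for Dnmt3a and chr2:153488476-153488502 on the plus strand for Dnmt3b. The others lie at chr10:77512860-77512886 on the plus strand for Dnmt3l, chr10:62342663-62342689 on the minus strand for Tet1, chr3:133151497-133151525 on the minus strand for Tet2 and chr6:83353783-83353811 on the minus strand for Tet3. Each position is an exonic, coding one. The end shown for Dnmt1 held 6 distinct sequences of 25 to 30 nt, and the ends shown for Tet3 and Dnmt3a also held 6 each, of 23 to 29 nt and 24 to 29 nt. The ends shown for Uhrf1 and Dnmt3b held 4 and 3 sequences, and those for Dnmt3l, Tet1 and Tet2 held 2 each.

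All 8 genes had MILI-bound sequences, but Tet3 and Dnmt3a held most of them. Their 4826 sense sequences made up 86.6% (85.7–87.5%) of the 5571. At least 1 sense sequence was found for 8 of 8 genes, against 72.6% of all protein-coding genes. At least 10 were found for 8 of 8 genes, against 56.3% of all protein-coding genes. At least 100 were found for 4 of 8 (Tet3, Dnmt3a, Dnmt1 and Tet1), against 24.9%, and at least 1000 for 2 of 8 (Tet3 and Dnmt3a), against 1.52%. Long transcripts offer more positions, so levels are given below as a density, the number of distinct 5′ ends for each kb of the longest annotated transcript. On that scale the median of the 8 genes was 14.6 ends per kb, against 4.40 over all protein-coding genes, whose upper quartile was 19.4 and whose 99th percentile was 111. The median gene was exceeded by 7 of 8 and the upper quartile by 3 of 8. A sequence counts once however often it was read, so these densities are not expression levels, and fewer cells of a type and less RNA per cell cannot be told apart.

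**Figure D1:**
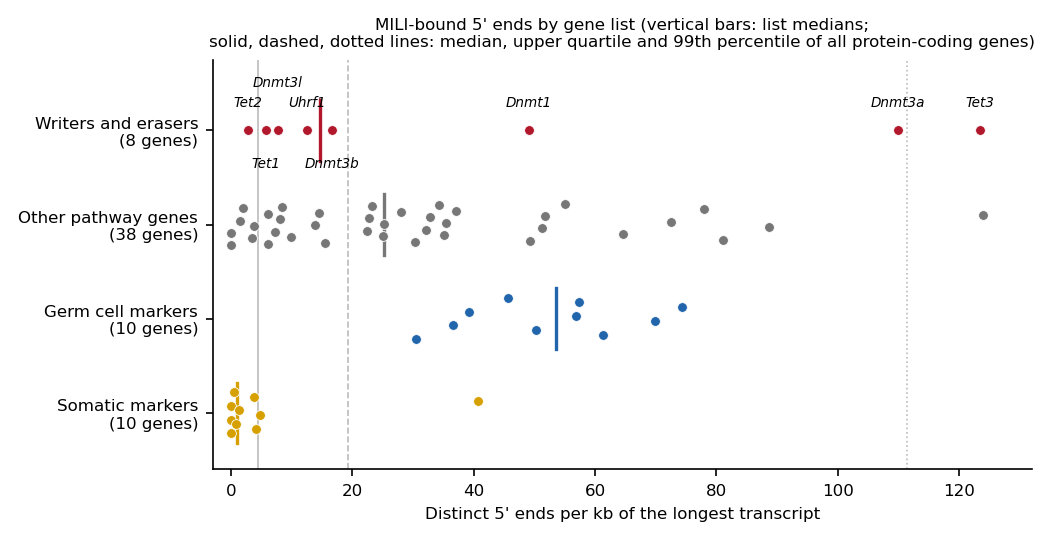
Density of distinct 5′ ends along the longest transcript (x axis, ends per kb) for the 8 writer and eraser genes and, below them, other DNA methylation pathway genes, germ cell markers and somatic testis markers. Points are genes, coloured bars are list medians and grey lines mark the median, upper quartile and 99th percentile of all protein-coding genes; Tet3 at 123 lies beyond the 99th percentile of 111 and Dnmt3a at 109.96 just below it.

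Among the maintenance genes, Dnmt1, which copies methylation onto the daughter strand after replication, had 428 sense sequences. Its 288 distinct 5′ ends on the 5870-nt longest transcript gave 49.1 ends per kb, more than 92.6% of protein-coding genes and rank 1615 of 21951. Uhrf1, which recognises hemimethylated DNA and brings DNMT1 to it, had 65 sense sequences and 45 ends on 3586 nt, or 12.5 ends per kb. The density of Dnmt1 was 3.91 times that of Uhrf1, although both act at the same step.

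The de novo genes spanned a wider range. Dnmt3a had 2084 sense sequences and 1065 ends on its 9685-nt longest transcript, or 109.96 ends per kb, rank 225 and more than 98.98% of protein-coding genes. Dnmt3b had 98 sequences and 72 ends on 4320 nt, or 16.7 ends per kb, a density 6.60 times lower than that of Dnmt3a. Dnmt3l, the cofactor that stimulates both enzymes and is needed for germline imprints and transposon methylation, had 16 sequences and 14 ends on 1822 nt, or 7.68 ends per kb. Dnmt3l was above 57.1% of protein-coding genes and Dnmt3b above 71.6%.

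The erasers held both extremes. Tet3, which oxidises 5-methylcytosine and is the maternal form acting on the zygotic genome, had 2742 sense sequences, rank 21 of all protein-coding genes. Its 1345 ends on 10904 nt gave 123 ends per kb, rank 163 and more than 99.3% of protein-coding genes. Tet1, known for roles in primordial germ cells and in activating meiotic genes in the female germline, had 107 sequences and 82 ends on 14369 nt, or 5.71 ends per kb. Tet2, best known as a tumour suppressor of blood cells, had 31 sequences and 26 ends on 9179 nt, or 2.83 ends per kb, and was the 1 gene of the 8 below the median of all protein-coding genes. The density of Tet3 was 21.6 times that of Tet1 and 43.5 times that of Tet2. Neighbouring genes in the order of density differed less: Tet3 was 1.12 times Dnmt3a and Dnmt3a 2.24 times Dnmt1. The order of the first 2 depends on the transcript: on those with the longest coding sequence, Tet3 had 65.6 ends per kb and Dnmt3a 109.96.

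The tissue label was checked with marker genes. All 10 germ cell markers had at least 100 sense sequences, with densities of 30.5 to 74.3 ends per kb and a median of 53.6. The 10 somatic testis markers had a median of 1.03, and Insl3, Cyp17a1 and Hsd3b1, which mark Leydig cells, had 0 sense sequences. The exception was Star, a cholesterol transporter of steroid-making cells, with 40.8 ends per kb. On the longest transcripts Tet3 and Dnmt3a were denser than all 10 germ cell markers, although Tet3, at 65.6 ends per kb on the transcript with the longest coding sequence, would lie below the highest of them. Tet1, Tet2, Dnmt3l, Uhrf1 and Dnmt3b lay below all 10. Whether cell makeup has a part in these differences was not tested.

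Other genes of the DNA methylation pathway were also well represented. Of 38 such genes, 35 had at least 10 sense sequences, against 56.3% of all protein-coding genes. At least 100 were found for 21 of 38, against 24.9%, and the median was 25.1 ends per kb. The upper quartile of all protein-coding genes was exceeded by 23 of 38. The densest was Nsd1, a histone H3 lysine 36 methyltransferase whose mark recruits DNMT3A, with 2976 sequences and 124 ends per kb, close to Tet3. Gadd45g and Gadd45b, stress-induced proteins linked to active demethylation, had 88.7 and 77.9 ends per kb. Mbd4, a glycosylase that removes mismatched thymine at CpG sites, had 72.5. Dnmt3c, the rodent-specific relative of Dnmt3b that methylates young transposons in the male germline, had 0 sense sequences. Only 2 sequences of the 8 genes were set aside because they also matched another gene, both from Uhrf1. Each sequence is listed at 1 position, so RNAs that Dnmt3b and Dnmt3c share in full may be missing from the list, and the values of both are uncertain.

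The sequences had the size of MILI-bound piRNAs in every gene. Mean lengths ran from 26.9 nt for Dnmt3a (SD 1.44 nt over sequences) to 27.2 nt for Tet2 (SD 1.23 nt), and the whole list averaged 27.1 nt (SD 1.31 nt). The most common length was 27 nt in every gene, tied with 26 nt in Uhrf1 (17 sequences each) and with 28 nt in Dnmt3l (6 each). The gel step is given as a cut of about 28 to 30 nt, so length is no independent mark. The list average of 27.1 nt lies below that stated window.

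Of the 5571 sense sequences, 65.3% (64.0–66.6%) began with U, against 75.4% of the whole list. The highest shares were 93.5% (78.6–99.2%) in Tet2, 87.5% (61.7–98.4%) in Dnmt3l and 85.0% (76.9–91.2%) in Tet1. Tet3 and Dnmt3a had 65.2% (63.4–67.0%) and 66.3% (64.2–68.3%). Dnmt3b had 69.4% (59.3–78.3%) and Uhrf1 56.9% (44.0–69.2%). Dnmt1 had the lowest share, 53.5% (48.7–58.3%), just under the 5th percentile of 54.2% among the 5473 protein-coding genes with at least 100 sequences. Divided by the U share of the whole longest transcript, the 5′ U share was 2.48 in Uhrf1 to 3.74 in Tet2, against a median of 2.78 over those 5473 genes (5th to 95th percentile 2.11 to 3.58). Dnmt1, at 2.58, lay inside that range, and its longest transcript is 20.7% U. Across protein-coding genes with at least 20 sequences the share also went with density: the median was 74.3% in the 2521 genes with under 10 ends per kb and 65.1% in the 314 genes with 100 or more, the class of Tet3 and Dnmt3a.

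The preference for U can be read from the positions themselves. The list holds no sequence that crosses an exon junction, so only positions from which 27 nt fit inside 1 exon were counted as possible starts. In Tet3, 764 of 2574 U positions were used as a 5′ end, or 29.7% (27.9–31.5%), against 579 of 8044 other positions, or 7.198% (6.64–7.78%). In Dnmt3a the shares were 26.99% (25.2–28.9%) and 6.70% (6.12–7.32%). In Dnmt1 they were 12.6% (10.6–14.8%) and 3.99% (3.40–4.66%). U was thus used 4.12, 4.03 and 3.15 times as often as other bases in these 3 genes. In Tet1 and Tet2 few ends were not U: Tet1 used 69 of 3940 U positions and 13 of 10091 others, 13.6 times as often, while Tet2 used 24 of 2234 U positions and only 2 of 6659 others. Dnmt3b used 5.56% of U positions and 0.842% of others, and Uhrf1 2.99% and 0.914%. In Dnmt3l 11 of 355 U positions and 2 of 1103 others were used.

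**Figure D2:**
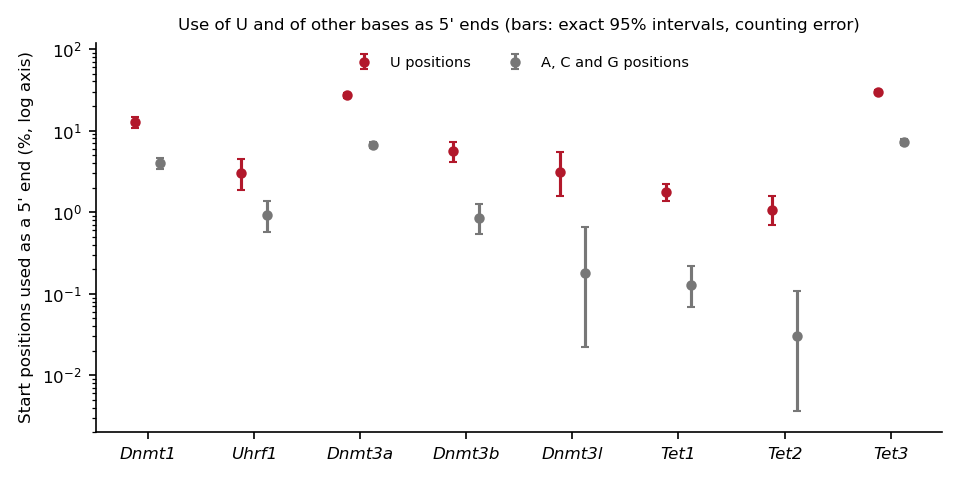
Percentage of possible start positions that were used as a 5′ end (y axis, log scale) at U positions and at A, C and G positions of each gene, with exact 95% intervals. U positions lie above the other bases in all 8 genes, from 29.7% against 7.198% in Tet3 to 1.07% against 0.030% in Tet2.

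Ends that held several distinct sequences, which share a 5′ end and differ at the 3′ end, were richer in U. In Tet3 47.0% (43.4–50.7%) of the 757 ends with 1 sequence were U, 56.7% of those with 2, 74.2% of those with 3 and 82.2% (75.7–87.6%) of the 174 with 4 or more. In Dnmt3a the shares were 46.6%, 60.3%, 68.4% and 85.9% in the same order. In Dnmt1 they were 38.6%, 48.3% and 81.8% in the first 3 classes, and 9 of the 10 ends with 4 or more began with U (55.5–99.7%). These are shares of distinct ends and not of sequences. Ends with 2 or more sequences made up 47.0% of ends in Tet3, 44.8% in Dnmt3a and 31.8% in Dnmt1, and 14.3% to 31.1% in the other 5 genes. The fullest end of all lay in the 3′ UTR of Tet3, at nt 8157 of the transcript, and held 9 sequences of 22 to 30 nt.

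**Figure D3:**
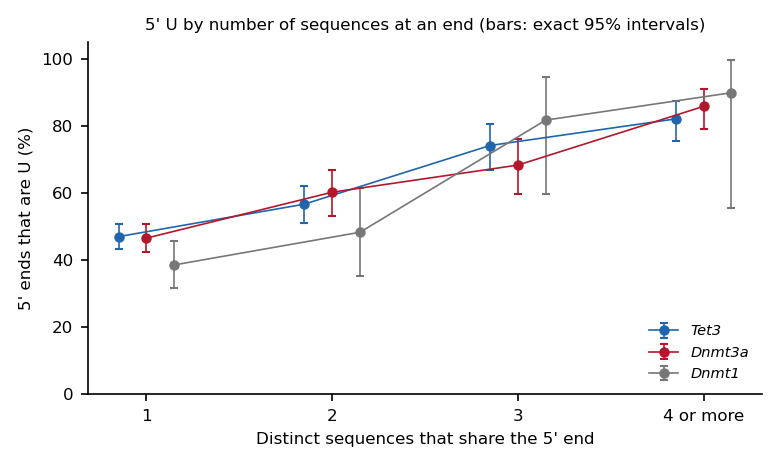
Percentage of 5′ ends that are U (y axis) by the number of distinct sequences sharing the end (x axis) in Tet3, Dnmt3a and Dnmt1, with exact 95% intervals. The share is 38.6% to 47.0% at ends with 1 sequence and at least 82.2% at ends with 4 or more.

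Within the messages, the 2 dense genes had most of their ends in the 3′ UTR, and Dnmt1 did not. Regions were taken from the protein-coding transcript with the longest coding sequence among those with a 3′ UTR of at least 100 nt. In Tet3 the 3′ UTR held 1017 of 1345 ends (75.6%) at 179 ends per kb, against 64.3 in the coding sequence and 26.3 in the 5′ UTR. In Dnmt3a it held 907 of 1065 ends (85.2%) at 135.5 ends per kb, against 56.8 in the coding sequence and 11.5 in the 5′ UTR. The ratio of 3′ UTR to coding density was 2.79 in Tet3 and 2.38 in Dnmt3a. Among 6494 protein-coding genes with at least 50 ends and a 3′ UTR of at least 100 nt the median ratio was 0.846, with quartiles of 0.438 and 1.47, and 42.5% had a ratio above 1. By the ratio over all positions, Tet3 was above 93.7% of these genes and Dnmt3a above 90.5%. Dnmt1 had 19.2 ends per kb in its short 3′ UTR of 312 nt (6 ends) and 56.1 in its coding sequence (273 ends), a ratio of 0.343, above 19.3% of those genes. The coding densities of Tet3, Dnmt3a and Dnmt1, at 64.3, 56.8 and 56.1 ends per kb, were thus close together, and the 3 genes differed mainly in the 3′ UTR. Over start positions inside 1 exon these coding densities were 66.7, 70.2 and 69.4, in another order.

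The sparse genes had fewer ends to place. In Tet1 67 of 82 ends lay in the 3′ UTR, at 8.42 ends per kb, against 2.29 in the coding sequence, a ratio of 3.68. Dnmt3b had 38 ends in the 3′ UTR and 32 in the coding sequence (ratio 2.31), Tet2 11 and 9 (ratio 2.43) and Uhrf1 12 and 32 (ratio 0.895). In Dnmt3l all 14 ends were coding, and 0 lay in the 273-nt 3′ UTR. Tet2 was the 1 gene of the 8 whose 5′ UTR was its densest region, with 6 of 26 ends at 16.7 per kb.

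Base composition differs between regions, since 3′ UTRs are richer in U, so the use of U positions was compared by region. In Tet3, whose 3′ UTR start positions are 30.0% U and whose coding start positions are 17.8% U, 35.7% (33.4–37.99%) of U positions in the 3′ UTR and 18.5% (16.0–21.3%) in the coding sequence were used. In Dnmt3a the shares were 28.6% (26.6–30.8%) and 21.6% (17.7–25.9%). Positions with another base showed the same order: 10.5% and 4.11% in Tet3, and 8.06% and 3.67% in Dnmt3a. In Dnmt1 the order was the reverse, with 3.28% (0.900–8.18%) of U positions used in the 3′ UTR and 16.4% (13.8–19.2%) in the coding sequence.

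**Figure D4:**
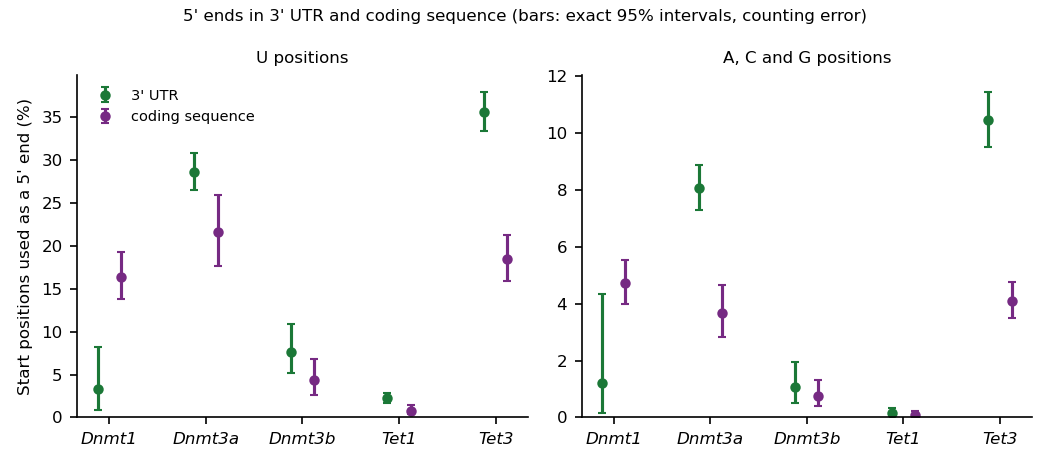
Percentage of possible start positions used as a 5′ end (y axis) in the 3′ UTR and the coding sequence of 5 genes, at U positions (left panel) and at A, C and G positions (right panel), with exact 95% intervals. Use is higher in the 3′ UTR for Tet3 (35.7% against 18.5% of U positions) and Dnmt3a (28.6% against 21.6%) and lower for Dnmt1 (3.28% against 16.4%).

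Inside both long 3′ UTRs the ends were densest in the middle. Cut into 3 equal parts from the stop codon on, the 3′ UTR of Tet3 had 157, 271 and 111 ends per kb, and that of Dnmt3a 92.3, 222 and 91.8. The 3′ UTR of Tet1 had the same shape at a lower level, with 6.41, 14.0 and 4.90 ends per kb. In bins of 250 nt, the fullest of Tet3 was nt 8001 to 8250 with 85 ends, and the fullest of Dnmt3a nt 7001 to 7250 with 76 ends. Neither transcript had an empty bin, in 43 and 38 bins, and sequences covered 71.0% of Tet3 and 71.9% of Dnmt3a. Dnmt1 was covered over 45.0%, and its fullest bin, nt 3501 to 3750 with 34 ends, was coding. Tet1 had 28 of 57 bins empty, including a stretch of 4819 nt (nt 2307 to 7125) without any sequence, and Tet2 19 of 36.

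**Figure D5:**
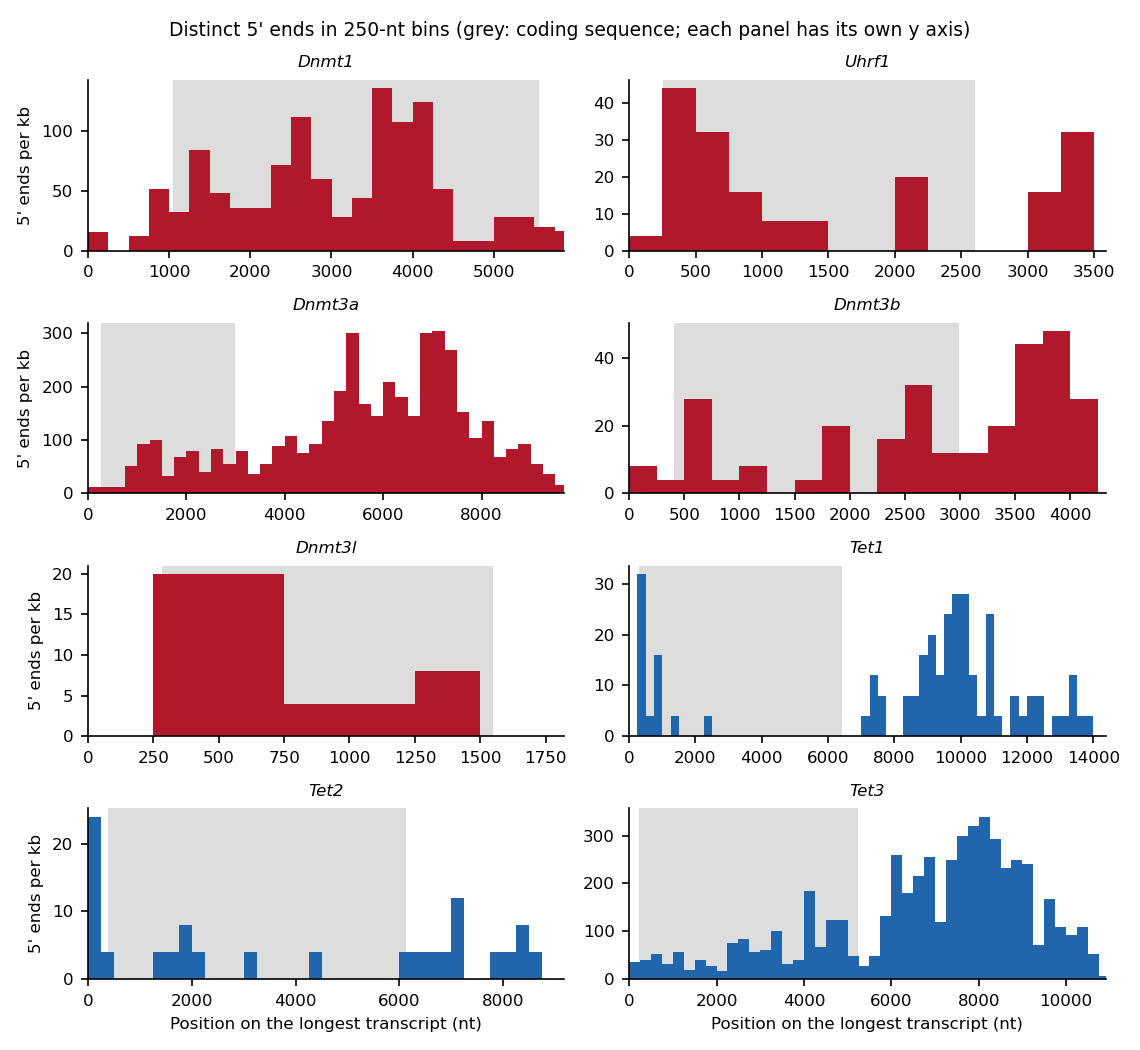
Distinct 5′ ends per kb in bins of 250 nt (y axis, its own scale in each panel) along the longest transcript of each gene (x axis, nt), with the coding sequence shaded grey. Tet3 and Dnmt3a have ends in every bin and peak inside the 3′ UTR at 340 and 304 ends per kb, while Dnmt1 peaks in the coding sequence at 136.

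Annotated isoforms divided the ends of the 3 best covered genes. Dnmt3a has a long form and a short form that starts from an internal promoter and is known as the main one of germ cells and embryonic stem cells. The first exon of the annotated short form, 117 nt, held 6 ends, or 51.3 ends per kb, none of them found on the long form. Exons 1 to 6 of the long form, 889 nt, held 13 ends, or 14.6 per kb, while exons 7 to 22 held 141 ends at 72.0 per kb. The last exon held 911 ends at 133 per kb. For Tet3, a form with a longer coding sequence (5412 nt against 5007 nt) carries a second exon of 731 nt with 64 ends, or 87.6 per kb, none of them found on the longest transcript. For Dnmt1, the first exon of the longest transcript, 778 nt, held 9 ends, and the first exons of a further pair of coding transcripts, of 272 nt and 156 nt, held 0.

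Sequences on the gene's strand that lay inside its mm9 span but matched no annotated transcript were sparse per kb beside the exonic ones. Such sequences can be intronic or come from exons that are not annotated, and these were not told apart. Tet3 had 675 of them with 491 ends, or 5.99 ends per kb of the span that remained after taking off the longest transcript, which made the exonic density 20.6 times higher. Dnmt3a had 283 with 224 ends at 3.22 per kb, a ratio of 34.2, and Dnmt1 131 with 100 ends at 2.54 per kb, a ratio of 19.3. The ratio was lower in Dnmt3b and Uhrf1, at 6.67 and 6.16, and Dnmt3b had 101 unmatched sequences against 98 matched ones. Tet1, Tet2 and Dnmt3l had 5, 4 and 1. Unmatched sequences began with U in 85.2% (82.3–87.8%) in Tet3 and 76.3% (70.9–81.2%) in Dnmt3a, above the 65.2% and 66.3% of the matched ones. The U content of the unmatched span was not taken into account. The 2 sets also differed in density, with which the 5′ U share went across genes.

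Antisense sequences were few. Tet3 had 6, Dnmt3a 4, Dnmt1 3, and Dnmt3b, Tet1 and Tet2 1 each. They made up 0.218% of all sequences of Tet3 and 0.192% of those of Dnmt3a. The median over 5806 protein-coding genes with at least 100 sequences in both orientations together was 0.741%. Uhrf1 stood apart in share, with 10 antisense sequences beside 65 sense ones, or 13.3% (6.58–23.2%). Of the 10, 7 lay in the 5′ UTR and 3 in the coding sequence. On the opposite strand, 155 sequences, the 7 among them, lay in the 5 kb before the first sense end of Uhrf1, and 93 lay inside its span. Opposite-strand sequences also lay in the 5 kb before the first sense end of Dnmt3b (73 sequences, 89.0% with a 5′ U) and of Tet3 (60 sequences, 88.3%). In Dnmt3a the opposite strand held 150 sequences inside the span, 90.7% with a 5′ U, of which 1 matched an annotated Dnmt3a transcript.

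Pairs that overlap by 10 nt at their 5′ ends, the mark of slicing between strands, were found 2 times among the 3044 sense ends, against a mean of 1.32 at each other overlap from 1 to 20 nt (highest 4). One pair lay in Tet2 and the other in Tet3. Their sequences are shown with the 10 overlapping bases in capitals.

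Tet2 sense: TGAATATTGAtgcggaggcgaggct
Tet2 antisense: TCAATATTCAtaaggcagtttgacgtc
Tet3 sense: TATTCCTGGAtcttcacacgggacaat
Tet3 antisense: TCCAGGAATAaggacgatgcgtgacc

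All 4 begin with U and have A at position 10. The A follows from the U, since position 10 of each sequence pairs with the first base of its partner. The Tet2 pair lies in the 5′ UTR, at chr3:133207273-133207297 on the minus strand and chr3:133207288-133207314 on the plus strand of mm9. The Tet3 pair lies in the 3′ UTR, at chr6:83316877-83316903 on the minus strand and chr6:83316894-83316919 on the plus strand. With 2 pairs in all, an excess at 10 nt over other overlaps was not detectable. At position 10 of the sense sequences A was somewhat more frequent than in the transcript as a whole in the best covered genes. It was found at 26.7% (24.3–29.1%) of ends in Tet3, whose transcript is 22.4% A, at 26.5% (23.9–29.2%) in Dnmt3a (23.8% A) and at 29.2% (23.98–34.8%) in Dnmt1 (25.3% A). The intervals of Tet3 and Dnmt3a lay above whole-transcript composition, that of Dnmt3a barely so, and that of Dnmt1 included it. The A share of each region was not taken into account, although most Tet3 and Dnmt3a ends lay in the 3′ UTR. The sparse genes went both ways. A was found at 40.2% (29.6–51.7%) of 82 ends in Tet1, against 28.5% in the transcript. In Dnmt3l it was found at 42.9% (17.7–71.1%) of 14 ends, against 22.8%, and in Uhrf1 at 28.9% (16.4–44.3%), against 23.4%. Dnmt3b and Tet2 lay below composition, at 22.2% (13.3–33.6%) against 24.4% and 26.9% (11.6–47.8%) against 29.7%. Among these sparse genes only the interval of Tet1 lay above whole-transcript composition.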

How the data were processed

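Small RNAs of about 28 to 30 nt were eluted after MILI immunoprecipitation and made into libraries with an Illumina small RNA kit, per the labels' protocols. The authors deposited 1 table of distinct sequences with their strand and, as values, 1-based positions on mm9, per the file headers and the submitters' processing notes. It has 5 columns and no counts. For the aligner, the mismatches allowed and the read filters, nothing is stated (not given in the sources used here).

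Sequences were matched whole and exactly to 141767 GENCODE M21 transcripts, in both orientations. That annotation is built on GRCm38, so only its sequences, coding limits and gene types were used, and no coordinate was converted. Spans are those of matched ends on mm9. On simulated data, matching recovered 500 of 500 sense sequences, where a match to several genes counted as found, and 0 of 500 with 1 changed base. Antisense copies were taken for sense in the same gene in 0 of 500 cases. Their recovery reused the sense strings, so it was no separate check. Regions were taken from the transcript with the longest coding sequence among protein-coding ones with a 3′ UTR of at least 100 nt. The 8 genes and the lists were chosen with earlier results of these data known. Named beside them were Dnmt3c, the 5 densest pathway genes, those at 0 and the markers needed to check the tissue; some genes under this rule are not reported here. No test was run. Alternatives covered lengths of 24 to 31 nt, other transcripts, shared matches, start positions clear of junctions, and sequences against ends. Matching used numba 0.67.0 and numpy 2.4.6 under Python 3.11.15, intervals scipy 1.17.1, tables pandas 2.3.3 and figures matplotlib 3.10.9.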

Additional observations from a re-analysis of the deposited data

How the results depend on the processing

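Of 110 recomputed values, 104 moved by less than 1.5 times (counts and densities) or stayed inside their 95% interval (shares). The share of 5′ U over the 8 genes was 57.0% when each 5′ end counted once, against 65.3% by sequence, and the shares of Tet3, Dnmt3a and Dnmt1 moved likewise, to 56.7%, 57.1% and 45.7%. The exonic over unmatched density of Dnmt3a was 52.1 by sequence and 34.2 by end. The density of Tet3 was 65.6 ends per kb on the transcript with the longest coding sequence, which has no annotated 3′ UTR, against 123 on the longest transcript, which turns the order of Tet3 and Dnmt3a (109.96 on either). Sequences of 24 to 31 nt only, matches shared with other genes, protein-coding transcripts only and rows on the gene's own chromosome left the 5571 sense sequences at 5488 to 5573, and the 26 antisense sequences and 2 pairs were the same in each setting run for them. No paired analysis was possible because the list carries no library labels, and no library could be left out for the same reason. Depth is unknown, so how near the densest transcripts are to the ceiling set by counting each sequence once was not tested.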

Other observations

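The 3′ ends of the sequences were examined for the pattern left when a precursor is cut into consecutive piRNAs, in which a 3′ end is followed at once by the next 5′ end and by a U. In Tet3, 334 pairs of a 3′ end and a 5′ end lay at a distance of 1 nt, against a mean of 339 at distances of 2 to 20 nt (lowest 299, highest 355). In Dnmt3a there were 213, against a mean of 222 (204 to 241), and in Dnmt1 27, against 22.3 (15 to 31). Dnmt3b had 5, against a mean of 2 (0 to 4), and the other 4 genes had 0 or 1. The base after the 3′ end was U at 25.9% (23.8–28.0%) of distinct 3′ ends in Tet3 and at 26.9% (24.5–29.3%) in Dnmt3a, against 24.2% U in either transcript. It was U at 18.9% (14.9–23.5%) in Dnmt1, against 20.7% in the transcript. In Dnmt3b it was U at 38.2% (28.1–49.1%) of 89 ends, against 22.4% in the transcript. These references are whole transcripts, and the composition of each region was not taken into account. In Tet3 and Dnmt3a most 5′ ends lay in the 3′ UTR, where start positions are 30.0% and 26.9% U. In Dnmt3b 52.8% of 5′ ends lay there, where start positions are 28.06% U, near the lower limit of its interval.

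Sequences on the gene's strand that matched no transcript were gathered in places. In Tet3, 96 of 675 lay in the 1 kb from 83349000 to 83349999 on chromosome 6, and in Dnmt3a 81 of 283 lay in the 1 kb from 3892000 to 3892999 on chromosome 12 (mm9).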
